A study of Mus musculus with 2 samples.

Results

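Interferon-stimulated genes are the genes that cells switch on when an interferon binds its receptor. Described here are 43 of them, chosen by name as well-known members of the response, among the 23284 gene symbols measured in mouse chronic myeloid leukemia (CML) stem cells, called leukemic stem cells or LSCs. The list was chosen with earlier results of these data known. All 43 were found and all 43 had a mean of at least 1 FPKM over the libraries, the level from which a ratio was taken. FPKM counts the fragments on a gene's exons and divides them by exon length and by the mapped fragments of the library, so levels may be compared between genes.

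The data were 1 RNA-sequencing library of WT CML LSCs and 1 of STAP-1 KO CML LSCs. STAP-1 is an adaptor protein of hematopoietic cells, and its gene was disrupted by targeting in the KO mice. Donor LSK cells (lineage-negative, Sca-1-positive, Kit-positive bone marrow cells) of either genotype, on the C57BL/6J background, were transduced with p210 BCR-ABL in a vector carrying GFP and given to lethally irradiated congenic mice, and GFP+ CD45.2+ LSK cells were sorted from the recipients on day 11. Mice were 8 to 14 weeks old, both libraries carried BCR-ABL, and neither normal LSK cells nor interferon-treated cells were among the samples. The retroviral model drives BCR-ABL from a vector rather than from the BCR locus, and how many recipients went into each library is not given in the sources used here.

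With 1 library per genotype there were no replicates and no test between genotypes was possible. A gene was called higher or lower in STAP-1 KO cells when its FPKM differed at least 2-fold. Total read counts were not used here, but depth could be read from the steps between low FPKM values at about 7500000 reads for WT and 10470000 for STAP-1 KO. The read numbers that follow from this are estimates, and the 95% intervals given with the ratios (exact binomial, Clopper-Pearson) cover counting error only, not the spread between mice. Stap1 itself had 62.0 FPKM in WT and 0.309 FPKM in STAP-1 KO, a log2 ratio of -7.25, in the direction the labels give.

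An interferon of type I or type II acts through a receptor pair and the kinases JAK1, TYK2 or JAK2, which phosphorylate STAT transcription factors. STATs together with IRF9 form the complex ISGF3, which binds the interferon-stimulated response element (ISRE), whereas STAT dimers bind the gamma-activated site (GAS). The induced proteins sense and degrade viral RNA, block viral entry and release, and present antigen. In the blood system, interferons are known to bring dormant stem cells into cycle, and interferon alpha is a long-used treatment of CML.

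Interferon-stimulated genes were more often higher than lower in STAP-1 KO LSCs. Of the 43, 16 were at least 2-fold higher (37.2%), beside 11.8% of all 10974 genes above that same floor. Only Samhd1 was at least 2-fold lower (2.33%), beside 22.6% of all such genes. The other 26 stayed within 2-fold. The log2 ratio, taken after adding 0.1 FPKM to both values, was above 0 for 31 members (72.1%) and for 48.3% of all genes. Its median was 0.57 over the members, in a range from -1.03 to 3.54, and -0.04 over all genes. The interval of the ratio lay wholly above 1 for 26 members, wholly below 1 for 10, and included 1 for 7, and it lay wholly above 2-fold for 12. Ifi44 stood highest at 12.7-fold, followed by Rtp4 at 7.26-fold and Iigp1 at 4.22-fold. At the cut-off, Gbp3 lay just inside at 2.09-fold and Cmpk2 just outside at 1.96-fold.

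**Figure D1:**
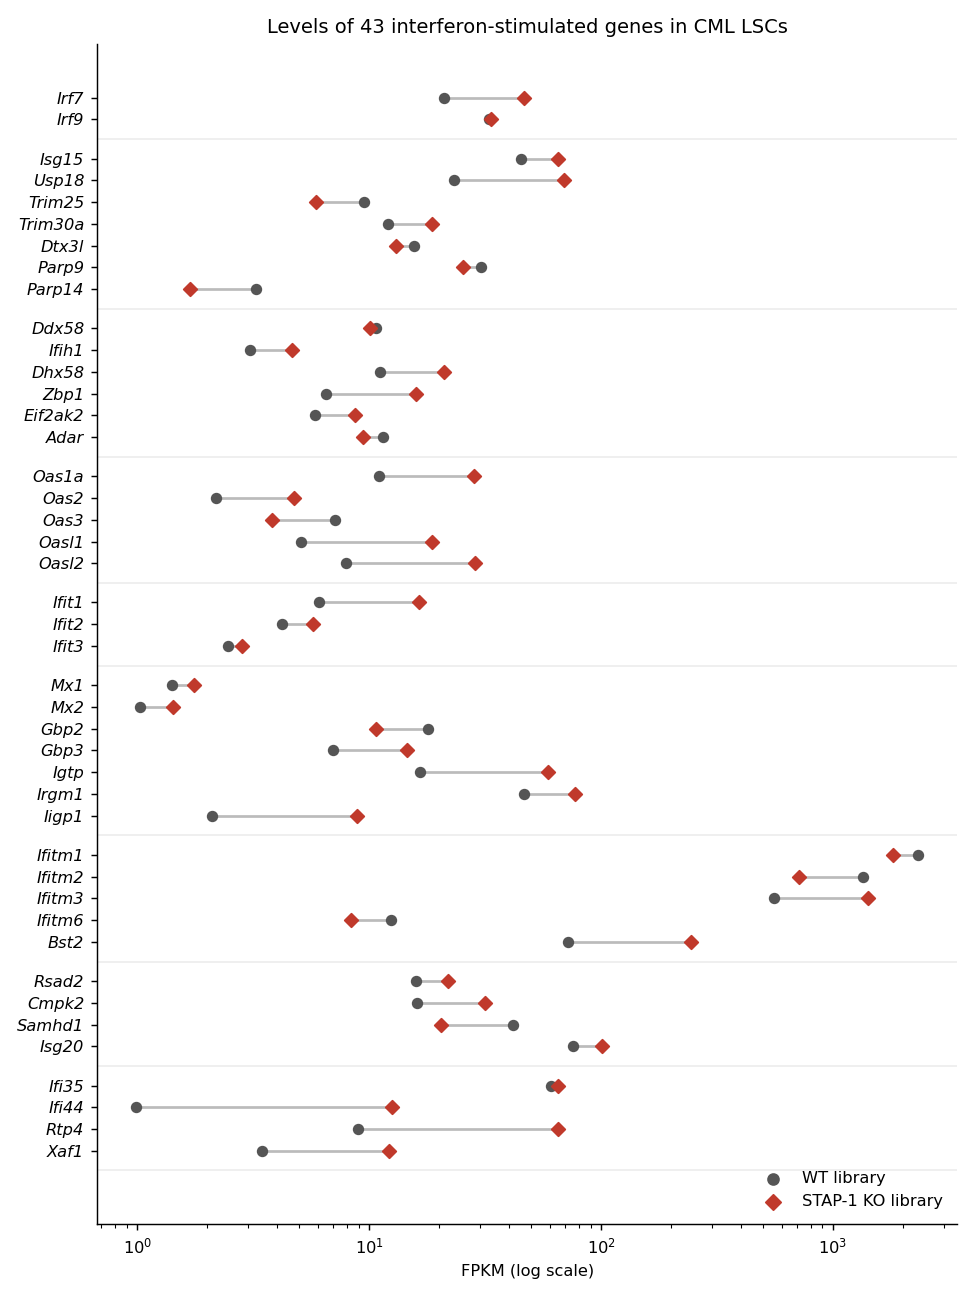
FPKM (log scale) of the 43 interferon-stimulated genes in the WT library (grey circles) and the STAP-1 KO library (red diamonds), 1 library each, ordered by role with a line between the values of a gene. Most diamonds lie to the right of their circles, and Ifitm1, Ifitm2 and Ifitm3 lie far above the rest, up to 2332 FPKM for Ifitm1 in WT.

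Transcript length and cell type markers moved with this difference, and their part in it was not tested. When all genes were put into 10 equal groups by transcript length, the median log2 ratio went from 0.54 in the shortest group, up to 1189 bases, to -0.99 in the longest, from 6253 bases. The members' median length was 2656 bases, against 2953 for all genes. When the median of genes of like length was subtracted, the members' median was 0.65, and 14 members were at least 2-fold higher and 2 lower, beside 10.4% and 18.2% of the 10862 genes that had a length. These calls, like all calls at 2-fold, were made without the pseudocount. On the scale with 0.1 FPKM added, which the corrected log2 ratios of single genes are given on, the counts were 13 and 3, because Oas1a (1.08 without the pseudocount and 0.99 with it) and Gbp2 (-0.96 and -1.01) lay at the cut-off. All 10 mast cell and basophil markers were lower in STAP-1 KO cells (summed FPKM 51800 in WT and 5275 in STAP-1 KO) and all 5 primary granule markers were higher (564 and 4623). Kit, which defines the sorted LSK cells, had 468 FPKM in WT and 30.1 in STAP-1 KO, the Sca-1 gene Ly6a had 285 and 106, and Cd34 had 281 and 194. Markers of plasmacytoid dendritic cells, which make much interferon, summed to 9.89 FPKM in WT and 22.7 in STAP-1 KO. Of their 5 markers, Klk1 was listed at 0 in both libraries, Siglech was at 0.122 and 0.0873 FPKM, and Ccr9 was at 0.356 and 0.603. Ly6d supplied most of the sum with 9.12 and 18.4 FPKM and was at least 2-fold higher. Cox6a2 had 0.296 and 3.60 FPKM, a ratio with an interval of 2.04 to 537, and it reached the floor only through the STAP-1 KO library, so that its call was in part set by the floor. Monocyte and macrophage markers summed to 193 in WT and 148 in STAP-1 KO, with 2 of the 6 at or above the floor higher and 3 lower. T and NK cell markers summed to 468 and 802, nearly all of it Nkg7. The B cell marker Cd79b had 3.10 and 17.8 FPKM. The 4 erythroid markers found summed to 234 and 190. In a bulk sample, a change in the share of a cell type and a change in RNA per cell cannot be told apart.

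The promoters of these genes held the response element more often than promoters at large. RefSeq promoter windows (GRCm38.p6, 250 bases before to 50 bases after the start) were matched for 33 of the 43 members. The ISRE core, GAAANNGAAA on either strand, was in a window of 17 of the 33 (51.5%) and of 1079 of all 27025 genes (3.99%). The GAS core, TTCNNNGAA, which reads alike on both strands, was in 11 of the 33 (33.3%) and in 9.55% of all genes. The members were picked as known members of the interferon response, so these shares describe the list and not the libraries. These are matches of letters, and binding was not measured. Of the 17 genes with an ISRE core, 8 had more than 1 match in a window, several of them overlapping. The 140 bases just upstream of the start are shown for 4 members that were at least 2-fold higher (Bst2, Ifit1, Oas1a and Igtp) and for 3 that were not (Isg15, Gbp2 and Oas3), because the same core is present in all 7. Each is read 5′ to 3′ along the coding strand, and capitals mark the ISRE core, which appears as its reverse complement in Ifit1 and Gbp2.
Bst2, chr8:71537473-71537612, minus strand: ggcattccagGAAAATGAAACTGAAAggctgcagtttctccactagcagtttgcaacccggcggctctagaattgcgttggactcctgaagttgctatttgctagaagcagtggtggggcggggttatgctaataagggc
Ifit1, chr19:34640749-34640888, plus strand: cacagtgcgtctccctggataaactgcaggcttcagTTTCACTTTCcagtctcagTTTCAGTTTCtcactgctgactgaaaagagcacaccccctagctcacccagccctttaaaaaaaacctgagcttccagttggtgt
Oas1a, chr5:120907526-120907665, minus strand: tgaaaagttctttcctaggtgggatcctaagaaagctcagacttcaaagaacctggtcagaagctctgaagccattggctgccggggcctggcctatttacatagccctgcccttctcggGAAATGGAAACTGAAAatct
Igtp, chr11:58199416-58199555, plus strand: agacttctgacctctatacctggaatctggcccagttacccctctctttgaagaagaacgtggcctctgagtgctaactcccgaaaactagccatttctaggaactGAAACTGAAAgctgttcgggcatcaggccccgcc
Isg15, chr4:156200819-156200958, minus strand: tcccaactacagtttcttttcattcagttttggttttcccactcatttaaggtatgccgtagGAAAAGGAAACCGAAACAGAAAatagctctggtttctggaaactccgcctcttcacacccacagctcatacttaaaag
Gbp2, chr3:142620523-142620662, plus strand: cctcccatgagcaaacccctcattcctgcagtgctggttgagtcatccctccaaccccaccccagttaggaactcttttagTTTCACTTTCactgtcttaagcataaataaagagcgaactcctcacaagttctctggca
Oas3, chr5:120777660-120777799, minus strand: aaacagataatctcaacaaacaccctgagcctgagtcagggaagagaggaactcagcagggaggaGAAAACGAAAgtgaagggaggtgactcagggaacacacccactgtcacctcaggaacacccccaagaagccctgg
In Isg15, 3 overlapping matches made 1 run that began 78 bases before the start. In Bst2 a pair of overlapping matches began 130 bases before the start and in Oas1a 20 bases before it. Ifit1 held its matches 104 and 85 bases before the start, Oas3 75, Gbp2 59 and Igtp 34. The core was about as frequent among the higher members as among the others. It was in 6 of the 11 higher members that had a window and in 11 of the 22 that were not higher, and the GAS core was in 4 of the 11 and 7 of the 22.

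The transcription factors came first by role. Irf7, the master factor for interferon alpha genes and itself interferon-induced, had 21.1 FPKM in WT and 46.5 FPKM in STAP-1 KO. It was 2.202-fold higher, with an interval of 1.94 to 2.51. Irf9, the DNA-binding part of ISGF3, had 32.8 and 33.4 FPKM, a ratio of 1.02 whose interval included 1. The length correction took the log2 ratio of Irf7 from 1.14 to 0.85, short of the cut-off, and that of Irf9 from 0.03 to -0.01.

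The next group holds ISG15, a ubiquitin-like protein coupled to other proteins during the response, and enzymes that transfer or remove such tags. Isg15 had 45.3 FPKM in WT and 65.2 FPKM in STAP-1 KO, 1.44-fold with an interval of 1.21 to 1.74. Usp18, which removes ISG15 and damps signaling at the interferon alpha receptor, had 23.1 and 69.2 FPKM and was 2.99-fold higher (2.63 to 3.45). Usp18 was the 1 member of the 7 past the cut-off. Trim30a, a TRIM protein of the mouse response, stood at 12.0 and 18.7 FPKM, or 1.56-fold. The ubiquitin ligase Trim25, which acts on RIG-I, had 9.46 FPKM in WT and 5.89 in STAP-1 KO, 1.61-fold lower (1.38 to 1.87). Dtx3l and Parp9, whose proteins form a complex that modifies histones, had 15.7 and 13.02 FPKM and 30.4 and 25.4 FPKM. Parp14, a large ADP-ribosyltransferase, had 3.24 and 1.70 FPKM and was 1.91-fold lower (1.51 to 2.42). Parp14 and Trim25 have long transcripts (7417 and 5590 bases), and their log2 ratios of -0.89 and -0.68 were 0.08 and -0.03 once genes of like length were taken as the base. The correction turned Dtx3l from -0.26 to 0.40. Isg15 is short (756 bases) and its log2 ratio of 0.53 became 0.01.

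Among the sensors of foreign nucleic acid, Zbp1, which detects Z-form nucleic acid and can start necroptosis, was the 1 of 6 past the cut-off. It had 6.51 FPKM in WT and 15.9 FPKM in STAP-1 KO, 2.45-fold higher (1.92 to 3.14). The 3 RIG-I-like receptors, which read viral RNA in the cytosol, differed from each other. Ddx58, which encodes RIG-I, had 10.7 and 10.1 FPKM, and its interval included 1. Ifih1, which encodes MDA5, had 3.06 and 4.64 FPKM, or 1.52-fold (1.22 to 1.90). Dhx58, which encodes the regulator LGP2, had 11.1 and 21.1 FPKM, or 1.90-fold (1.597 to 2.26). Eif2ak2, the kinase PKR that halts translation, had 5.83 and 8.68 FPKM, or 1.49-fold. Adar, an RNA-editing enzyme that keeps these sensors quiet, had 11.4 and 9.41 FPKM, a ratio of 0.823. Of the exonic bases of Adar, 23.1% overlap those of Chrnb2, and the library preparation is not stated to keep strand. After the length correction Ifih1 was past the cut-off (log2 1.23) and Zbp1 was just short of it (0.92), and the sign of Adar turned from -0.28 to 0.37 and that of Ddx58 from -0.09 to 0.13.

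The OAS family had the most members past the cut-off, 4 of 5, with a median log2 ratio of 1.35. OAS enzymes make oligoadenylate, which activates RNase L, and Oasl1 encodes a relative that lacks this activity and represses translation of Irf7 mRNA. Oasl1 had 5.08 FPKM in WT and 18.6 FPKM in STAP-1 KO and was 3.66-fold higher (2.86 to 4.76). Its neighbor Oasl2 had 7.97 and 28.6 FPKM and was 3.59-fold higher (3.05 to 4.26). Oas1a had 11.04 and 28.3 FPKM and was 2.57-fold higher (2.13 to 3.14). Because 47.6% of the 75-base windows of Oas1a occur also in Oas1g, its reads may be split between them, and the sum of both genes was 11.6 FPKM in WT and 32.6 in STAP-1 KO, 2.81-fold. Oas2 had 2.19 and 4.76 FPKM and was 2.17-fold higher (1.61 to 2.93). Oas3 went the other way, with 7.13 FPKM in WT and 3.81 in STAP-1 KO, 1.87-fold lower (1.54 to 2.28). Oas2 (chr5:120730333-120749853) and Oas3 (chr5:120753098-120777661) lie next to each other on the minus strand of GRCm38, so direct neighbors differed in direction. The length correction left Oas3 at -0.42 and Oas2 at 1.31 on the log2 scale.

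IFIT proteins assemble on foreign RNA, and IFIT1 binds viral RNA whose cap lacks the methylation of host caps. Ifit1 had 6.09 FPKM in WT and 16.4 FPKM in STAP-1 KO and was 2.70-fold higher (2.18 to 3.35). Ifit2 had 4.21 and 5.72 FPKM, or 1.36-fold (1.08 to 1.72), and Ifit3 had 2.46 and 2.83 FPKM, about 28.3 and 45.5 reads, with an interval that included 1. Some 41.1% of the windows of Ifit3 occur also in Ifit3b, and the summed level of both was 2.53 and 3.52 FPKM, or 1.39-fold. All 3 lie within one stretch of chromosome 19, from 34550694 to 34650009, and only Ifit1 of them passed 2-fold.

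**Figure D2:**
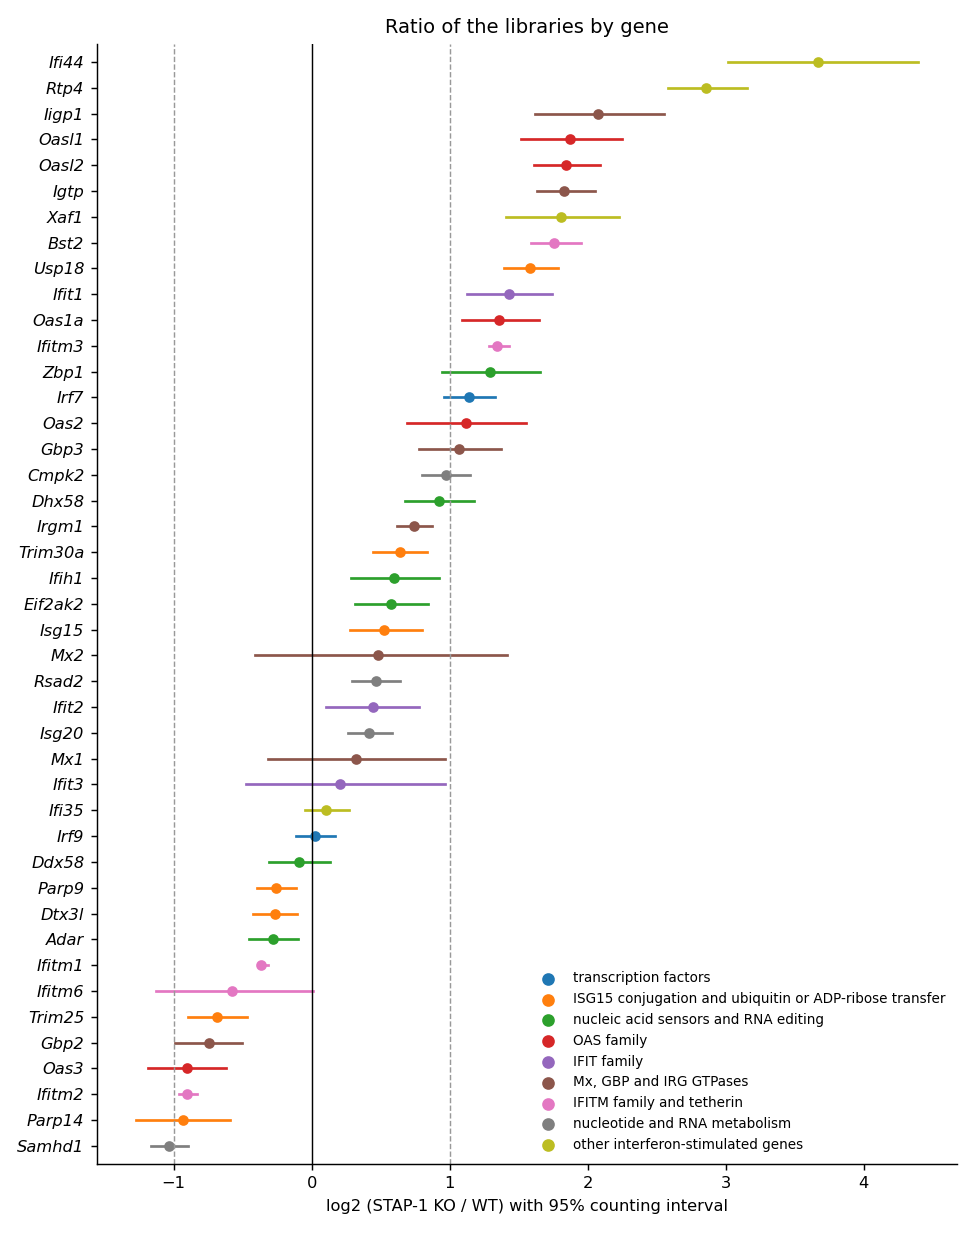
Log2 of the STAP-1 KO to WT ratio for each of the 43 genes (points, no pseudocount) with its 95% counting interval (bars), ordered by ratio and colored by role. Dashed lines mark 2-fold, which 16 genes passed on the right and Samhd1 on the left.

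The interferon-induced GTPases include Mx proteins, which trap viral nucleocapsids, guanylate-binding proteins (GBPs) and immunity-related GTPases (IRGs), which attack vacuoles around intracellular pathogens. Of the 7, 3 passed the cut-off and all 3 were higher. Iigp1, an effector IRG, had 2.10 FPKM in WT and 8.86 FPKM in STAP-1 KO, about 45.8 and 270 reads, and was 4.22-fold higher (3.07 to 5.88). Igtp, the regulatory IRG also called Irgm3, had 16.5 and 58.8 FPKM and was 3.56-fold higher (3.10 to 4.15). Irgm1 had 46.3 and 77.4 FPKM, or 1.67-fold (1.53 to 1.83). So each of the IRGs had the larger value in STAP-1 KO. The GBPs were split. Gbp3 had 6.97 and 14.6 FPKM and was 2.09-fold higher (1.71 to 2.58), whereas Gbp2, which lies beside it on chromosome 3, had 18.0 and 10.7 FPKM, 1.68-fold lower (1.42 to 1.98). The length correction left Gbp2 at -1.01, at the edge of the cut-off, and Gbp3 at 0.93 (log2). Mx1 had 1.41 and 1.76 FPKM and Mx2 had 1.02 and 1.43 FPKM, the lowest levels of the group, and both intervals included 1.

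The membrane proteins that restrict entry and release of viruses held the most abundant members, and the Ifitm family had log2 ratios of both signs. Bst2, or tetherin, which holds budding virus at the cell surface, had 72.0 FPKM in WT and 244 FPKM in STAP-1 KO and was 3.39-fold higher (3.02 to 3.86). Ifitm3, which blocks fusion of virus in endosomes, had 559 and 1419 FPKM and was 2.54-fold higher (2.44 to 2.69). Ifitm1 had 2332 and 1812 FPKM, a ratio of 0.777, and ranked at percentile 99.9 of the genes at the floor in both libraries. Ifitm2 had 1340 and 715 FPKM and was 1.87-fold lower (1.78 to 1.94). Ifitm6 had 12.4 and 8.32 FPKM, about 56.0 and 52.7 reads, and its interval included 1. The order of the abundant Ifitm genes was thus Ifitm1, Ifitm2, Ifitm3 in WT and Ifitm1, Ifitm3, Ifitm2 in STAP-1 KO. The summed level of the 4 was 4242 FPKM in WT and 3954 in STAP-1 KO, a ratio of 0.932, a smaller difference than that of any of the 4 genes alone. All 4 lie between 140954837 and 141017924 on chromosome 7. They are short, and after the length correction their log2 ratios were -0.88 for Ifitm1, -1.42 for Ifitm2, 0.83 for Ifitm3 and -1.09 for Ifitm6. For Ifitm2, 42% of the windows occur also in other annotated genes, pseudogenes among them, and its value is uncertain for that reason. Because Ifitm1, Ifitm2 and Ifitm3 outweigh the others, the summed level of all 43 members was 4918 and 5159 FPKM, whereas the 39 that are not Ifitm genes summed to 676 in WT and 1205 in STAP-1 KO.

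Of the 4 members that act on nucleotides and RNA, none was higher past the cut-off. Cmpk2, a mitochondrial nucleotide kinase, had 16.1 FPKM in WT and 31.5 FPKM in STAP-1 KO, 1.96-fold (1.74 to 2.22). Its neighbor Rsad2, which encodes viperin and makes a chain-terminating nucleotide, had 15.9 and 21.8 FPKM, or 1.38-fold (1.23 to 1.56). Isg20, an exonuclease of RNA, had 76.0 and 101 FPKM, or 1.33-fold, which the length correction took to -0.15 on the log2 scale. Samhd1, which degrades the nucleotides that reverse transcription needs, had 41.7 FPKM in WT and 20.4 in STAP-1 KO. It was 2.04-fold lower (1.86 to 2.24), and its log2 ratio of -1.03 was -0.81 against genes of like length. SAMHD1 is also made at a high level by many resting myeloid cells without interferon.

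The remaining members held the highest ratios. Ifi44, a cytosolic protein of little known function, had 0.988 FPKM in WT, about 20 reads, and 12.6 FPKM in STAP-1 KO, about 355 reads. Its WT value alone would have been under the floor of 1 FPKM. It was 12.7-fold higher with a wide interval of 8.11 to 21.1, and its level moved from percentile 2.42 to percentile 47.5 among the genes at the floor. With so low a WT level its ratio depended on the pseudocount, and its log2 ratio of 3.54 was 2.77 when 1 FPKM was added in place of 0.1. Rtp4, a chaperone of receptor transport, had 8.99 and 65.2 FPKM and was 7.26-fold higher (5.99 to 8.93). Some 12.4% of its windows are shared with the read-through gene Gm45338. Xaf1, a pro-apoptotic protein that opposes XIAP, had 3.46 and 12.1 FPKM and was 3.50-fold higher (2.66 to 4.68). Ifi35 had 60.8 and 65.3 FPKM, with an interval that included 1. The 3 higher ratios held after the length correction, at 3.49 for Ifi44, 2.54 for Rtp4 and 1.65 for Xaf1 (log2).

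**Figure D3:**
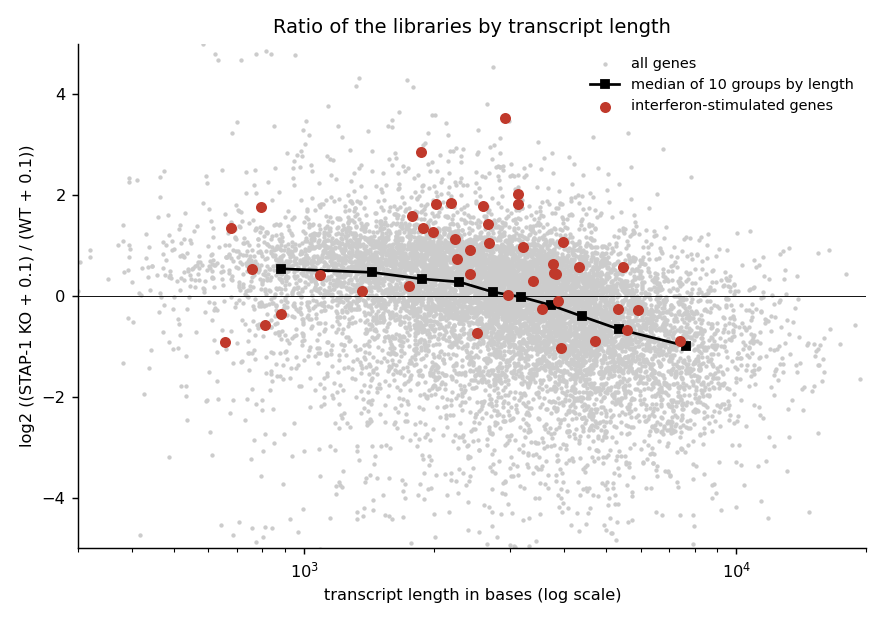
Log2 ratio of STAP-1 KO to WT (0.1 FPKM added to both) against transcript length in bases (log scale) for every gene at or above the floor of 1 FPKM (grey), the median of each of 10 equal groups by length (black squares) and the 43 interferon-stimulated genes (red). The medians descend from 0.54 to -0.99, and Parp14 lies close to the line at the long end while Ifi44 and Rtp4 lie far above it. A few genes fall outside the limits of the vertical axis.

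Levels in WT of the members called higher ran from 0.988 FPKM for Ifi44 to 559 FPKM for Ifitm3. Members that are often used as markers of the response spread from an interval that included 1 (Mx1, Ifit3 and Ddx58) through a small one (Isg15 and Rsad2) to a large one (Ifi44, Rtp4, Oasl1 and Oasl2). Neighbors did not always share a direction. Members that lie within 100000 bases of each other formed 8 groups with 20 genes in all, and 3 of the groups (Gbp2 with Gbp3, Oas2 with Oas3, and the Ifitm genes) held log2 ratios of both signs.

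The receptors, kinases, factors and sensors upstream of the interferon-stimulated genes were more often lower than higher. A list of 102 further genes of the pathway was set out by role, of which 101 were in the files and 79 had a mean of at least 1 FPKM. Of these 79, 16 were at least 2-fold higher and 16 lower (20.3% each, beside 11.8% and 22.6% of all genes), with a median log2 ratio of 0.15, and the length correction left 10 higher and 15 lower, beside 10.4% and 18.2%. The 30 signaling and sensing genes among them (receptors, kinases, STATs, IRFs, sensors, adaptors and brakes) held 1 of the higher (3.33% of the 30) and 12 of the lower (40%). Their median was -0.64, and 0 were higher and 11 lower after the correction. The other 15 higher genes were inducible or antigen presentation genes. Interferon transcripts themselves were hardly detected. Of 11 ligand genes, 10 were listed at 0 in both libraries, among them Ifnb1 and the alpha genes listed (Ifna1, Ifna2, Ifna4 and Ifna5). Ifng, the type II interferon, had 0.401 FPKM in WT and 1.15 FPKM in STAP-1 KO, below the floor. A level of 3 reads would be 0.744 FPKM in WT and 0.529 in STAP-1 KO for Ifnb1, and it ranged over these 10 short genes from 0.320 to 1.15 FPKM in WT and from 0.228 to 0.812 in STAP-1 KO, so values of 0 allow levels up to these (counting error only).

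Of the receptor chains, Ifngr2, the signaling chain for interferon gamma, had 66.8 FPKM in WT and 25.2 in STAP-1 KO and was 2.65-fold lower. The ligand-binding chain Ifngr1 had 80.6 and 119 FPKM. Ifnar1 had 13.3 and 7.66 FPKM and Ifnar2 had 64.6 and 70.6 FPKM, and Il10rb, shared with interferon lambda, had 47.4 and 38.6 FPKM. None of the 4 passed the cut-off. The kinases were all lower. Jak1 had 181 and 54.0 FPKM (3.36-fold lower), Jak2 had 48.2 and 13.1 FPKM (3.68-fold lower) and Tyk2 had 31.8 and 8.17 FPKM (3.89-fold lower). Their transcripts are long, and the length correction left log2 ratios of -1.08, -1.20 and -1.28. Stat2 had 10.8 and 4.38 FPKM, 2.47-fold lower, and -0.83 on the log2 scale after the correction. Jak1, Jak2, Tyk2 and Stat2 were thus all past the cut-off in the direction opposite to most interferon-stimulated genes.

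Of the other interferon regulatory factors, Irf1, a factor induced by interferon gamma, had 29.4 FPKM in WT and 59.6 in STAP-1 KO and was 2.03-fold higher, a log2 ratio of 1.02 that the length correction took to 0.73, short of the cut-off. Irf5 had 36.1 and 12.4 FPKM (2.90-fold lower) and Irf8, which directs monocyte and dendritic cell fates, had 45.4 and 19.6 FPKM (2.31-fold lower). Irf2 had 15.7 and 10.8 FPKM and Irf3 had 23.9 and 30.8 FPKM. Of 8 upstream sensors and adaptors at or above the floor, 3 were lower (37.5%, beside 22.6% of all genes) and none higher (beside 11.8%). Tlr3, an endosomal sensor of double-stranded RNA, had 5.38 and 1.37 FPKM, its adaptor Ticam1 had 5.80 and 2.62 FPKM, and Traf3, which links adaptors to kinases, had 5.68 and 2.26 FPKM. Traf3 has a transcript of 7060 bases, and the length correction took its log2 ratio from -1.29 to -0.32, short of the cut-off, while Tlr3 and Ticam1 stayed past it at -1.44 and -1.15. Among 6 brakes of the pathway, 1 was lower (16.7%, beside 22.6% of all genes) and none higher. It was Socs1, which inhibits JAK kinases, with 78.2 FPKM in WT and 24.1 in STAP-1 KO, 3.25-fold lower.

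**Figure D4:**
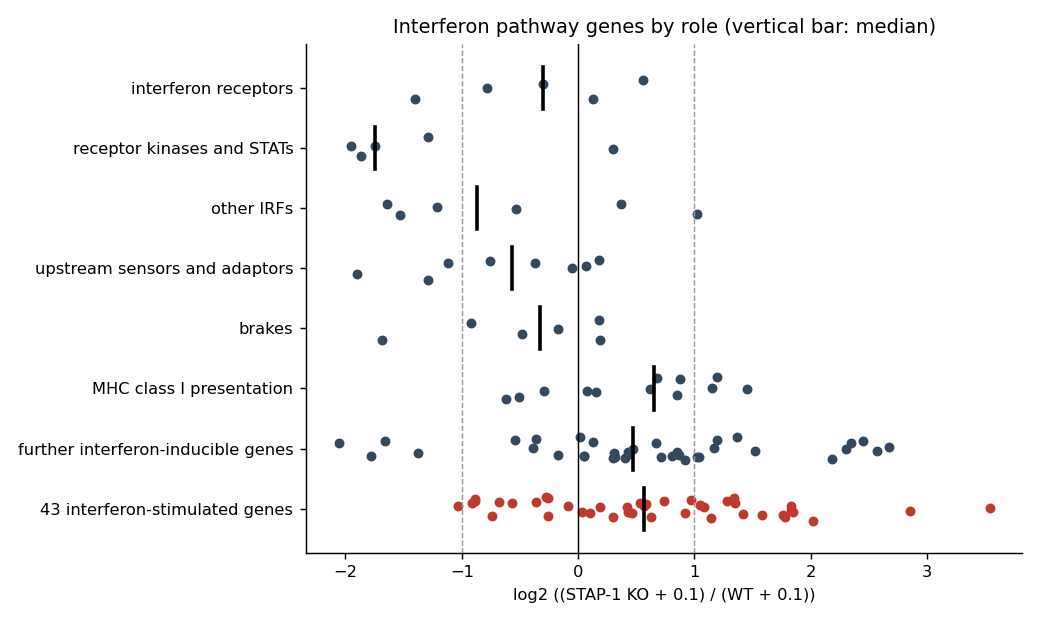
Log2 ratio of STAP-1 KO to WT (0.1 FPKM added to both) for interferon pathway genes at or above the floor, by role, with the median of each role as a vertical bar and 2-fold as dashed lines. The receptor kinases and STATs have a median of -1.75, whereas MHC class I genes (0.65), further inducible genes (0.47) and the 43 interferon-stimulated genes (0.57) have medians above 0.

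Further interferon-inducible genes were also more often higher than lower. Of the 44 listed, 37 were at or above the floor, 12 were higher (32.4%, beside 11.8% of all genes) and 4 lower (10.8%, beside 22.6%), with a median log2 ratio of 0.47. After the length correction 10 were higher and 4 lower. Of the 12, Gbp5, Oas1g and Ifit1bl1 were under 1 FPKM in WT and reached the floor only through the STAP-1 KO library, and of the 4, Slfn5 reached it only through the WT library, so for these the call was in part set by the floor. Oas1g had 0.598 FPKM in WT and 4.33 in STAP-1 KO, Ifi27 (Ifi27l1 in the files) had 18.2 and 108 FPKM, and Ifi203, a DNA-binding protein of the p200 family, had 2.18 and 12.4 FPKM. On the lower side, Slfn5 had 4.45 and 0.991 FPKM, the chemokine Ccl5 had 18.6 and 5.33 FPKM, and Ifi205, another p200 protein, had 16.8 and 5.24 FPKM. Genes of antigen presentation on MHC class I, which interferon gamma induces strongly, had 3 of 12 higher (25%, beside 11.8% of all genes) and none lower, with a median of 0.65. The 3 were the inducible catalytic subunits of the immunoproteasome. Psmb9 had 71.2 and 195 FPKM, Psmb8 had 228 and 523 FPKM, and Psmb10 had 55.1 and 123 FPKM. After the length correction their log2 ratios were 0.94, 0.75 and 0.64, and none of the 3 was then past the cut-off.

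**Figure D5:**
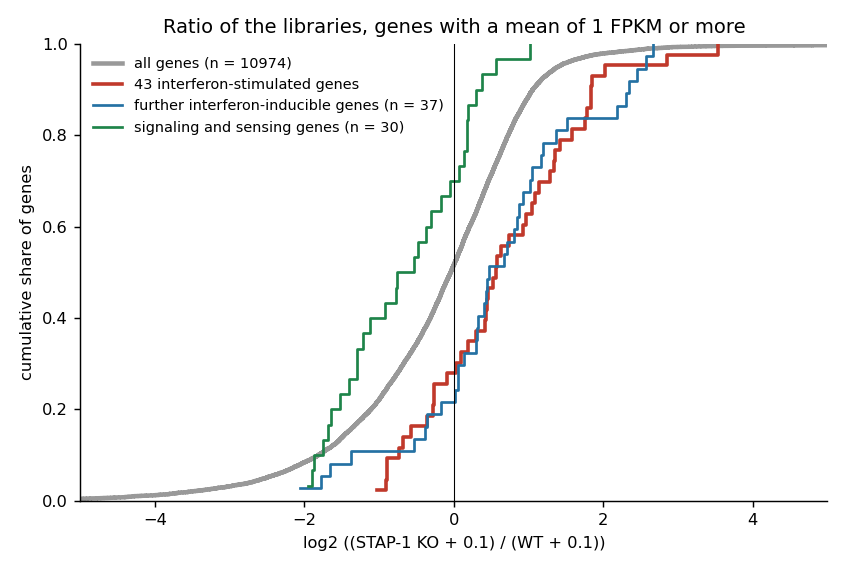
Cumulative share of genes by log2 ratio of STAP-1 KO to WT (0.1 FPKM added to both), for all 10974 genes at or above the floor (grey), the 43 interferon-stimulated genes (red), 37 further interferon-inducible genes (blue) and 30 receptor, kinase, STAT, IRF, sensor, adaptor and brake genes (green). Red and blue run to the right of grey and green to its left over most of the range, and the horizontal axis is cut at 5 on either side.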

How the data were processed

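GFP+ CD45.2+ LSK cells were sorted from CML mice of both genotypes, and cDNA was made with SMART-Seq v4 and libraries with Nextera XT, sequenced as 75-base single reads. Per the submitters' processing notes and the study's methods, the authors mapped reads to mm10 with TopHat2 2.0.13, Bowtie2 2.2.3 and SAMtools (0.1.19 in the notes) and deposited FPKM per gene symbol from Cuffnorm (Cufflinks 2.2.1). Cuffnorm scales libraries to each other, and total read counts were not used here.

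From these FPKM values, ratios were taken between the libraries in Python 3.11.15 (numpy 2.4.6, pandas 2.3.3, scipy 1.17.1), with a floor of a mean of 1 FPKM, a cut-off of 2-fold and a pseudocount of 0.1 FPKM on the log2 scale. Calls at 2-fold used no pseudocount. Effective depth was the value at which the most low FPKM (under 0.3) came to whole reads: 47.8% of 320 values in WT and 49.1% of 389 in STAP-1 KO lay within 0.01 of one. Lengths and positions came from GENCODE M21 (GRCm38), in which 20911 symbols were found as written and 1911 as an older symbol, and 462 were not matched. The length correction subtracted the median log2 ratio of genes in the same of 20 length bins. Promoters came from RefSeq. The steps were tested on simulated data. The 43 genes were a given list and all are named. From the pathway list, every ligand, receptor, kinase, STAT and IRF at the floor was named, and of its other groups up to 3 past 2-fold in each direction. Values of some genes that this rule or the marker lists cover are not reported here. The members and lists were chosen with earlier results of these data known. Scaling, pseudocount, floor, cut-off, length and motif strand were varied.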

Additional observations from a re-analysis of the deposited data

How the results depend on the processing

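With 1 library per genotype no setting adds a replicate. The number of members at least 2-fold higher (16) was between 14 and 18 under other pseudocounts, floors, scalings and the length correction, each changed alone, and 13 (without Oas1a) when the length correction was called with 0.1 FPKM added, and the members' median log2 ratio stayed between 0.50 and 0.69. The length correction, called without the pseudocount, kept 12 of the 16: Gbp3, Ifitm3, Irf7 and Zbp1 left, and Cmpk2 and Ifih1 joined. The single lower member, Samhd1, is near the cut-off: the count of lower members was 0 with a pseudocount of 1 FPKM and 0 with libraries scaled to the same median ratio, the same upper quartile or the same sum, and it was 2 (Ifitm2 and Ifitm6) after the length correction, or 3 with Gbp2 if 0.1 FPKM is added first. At 1.5-fold there were 6 lower and 21 higher members, beside 32.4% and 25.6% of all genes, and at 4-fold there were 0 lower and 3 higher, beside 8.83% and 2.28%. The 16 higher and 16 lower pathway genes of 79 were 10 and 15 after the length correction, 11 and 11 of 62 at a floor of 5 FPKM, and 12 and 15 with a pseudocount of 1 FPKM. On the coding strand alone, 10 of 33 members held the ISRE core, beside 2.06% of all genes. The sign of a single log2 ratio changed for 8 members under the length correction (Dtx3l, Parp14, Ddx58 and Adar to above 0, and Irf9, Ifit3, Isg20 and Ifi35 to below 0) and for 1, Ddx58, when libraries were scaled to the same sum. In an alternative chosen after seeing the data, without the 4 members that share over 10% of their windows with another gene, 14 of 39 were higher and 1 lower, with a median of 0.57. No paired analysis was possible because each genotype had 1 library. Depth limits the members with few reads, such as Mx2 (about 16.9 and 33 reads) and Ifi44 in WT (about 20).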
